A study of Mus musculus with 12 samples.

Results

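Transcripts of the CDK inhibitors and D-type cyclins were followed in sorted mouse primordial germ cells with or without a conditional knockout of Ezh2. The 10 genes were chosen by family: the CIP/KIP inhibitors Cdkn1a, Cdkn1b and Cdkn1c, the INK4 inhibitors Cdkn2a, Cdkn2b, Cdkn2c and Cdkn2d, and cyclins Ccnd1, Ccnd2 and Ccnd3. A count was matched by symbol for 9 of them, out of 37991 genes in the table, and all 9 passed the filter on low counts that left 16708 tested genes. Cdkn2d was not analysed here. The 12 libraries, each from the germ cells of 1 embryo, comprised 2 female Ezh2 CKO (conditional knockout), 3 female Ctrl, 3 male Ezh2 CKO and 4 male Ctrl embryos. All embryos were at E13.5 on a C57BL/6 background. The count columns label the Ctrl embryos WT and the CKO embryos KO. The Cre line, the exons removed and the alleles behind these labels are not given in the sources used here. Ezh2 encodes a methyltransferase of Polycomb repressive complex 2 (PRC2), which marks repressed genes with H3K27me3.

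D-type cyclins bind CDK4 and CDK6 and start the phosphorylation of the retinoblastoma protein, which releases E2F factors and lets a cell leave G1. INK4 proteins block CDK4 and CDK6 themselves, whereas CIP/KIP proteins act on cyclin-CDK complexes more broadly. Around this stage of mouse development, female germ cells leave mitosis for meiosis and male germ cells stop cycling in G0/G1, so both G1 cyclins and their inhibitors are of interest in each sex. The Cdkn2a locus, which encodes p16Ink4a and p19Arf from separate first exons, is a classic target of Polycomb repression in cultured mouse cells.

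Library totals lay between 26180685 and 35299206 counts, and 1 CPM, the count of a gene relative to the scaled total of its library, stood for 24.2 to 34.2 counts. Ezh2 itself averaged 95.6 ± 15.7 CPM in female CKO and 154 ± 10.9 CPM in female Ctrl germ cells (SD, n = 2 and 3). It averaged 84.4 ± 1.79 CPM in male CKO and 122 ± 19.9 CPM in male Ctrl germ cells (n = 3 and 4), and in each sex every CKO library lay below every Ctrl library. The log2 fold change was -0.68 in females (edgeR adjusted p = 0.02) and -0.53 in males (adjusted p = 0.0527). The 10 germ cell markers summed to 6034 and 6096 CPM in female CKO and 6492 to 7022 CPM in female Ctrl libraries, without overlap, and to 7021 to 7565 CPM in male CKO and 7312 to 7820 CPM in male Ctrl libraries. Pou5f1, Dppa3, Prdm1, Kit, Dppa5a and Dnd1 of this list were lower in both female CKO libraries than in any female Ctrl library. Dppa3, for example, was at 441 and 408 CPM, against 564, 682 and 757 CPM. Dazl was at 3220 and 3130 CPM in female CKO and 2990 to 3160 CPM in female Ctrl libraries. Ddx4 averaged 1288 CPM in female CKO and 1139 CPM in female Ctrl germ cells, and Nanos3 averaged 11.0 and 9.90 CPM. Tfap2c overlapped between the groups. The 6 markers of mesonephric and surface epithelium summed to 4.10 to 8.97 CPM in female CKO and 0.799 to 1.38 CPM in female Ctrl libraries. They summed to 4.13 to 4.53 CPM in male CKO and 0.934 to 2.27 CPM in male Ctrl libraries. Most of this sum came from Pax8 and Krt19. Pax8 had 3.10 and 4.75 CPM in female CKO and 0.399 to 0.995 CPM in female Ctrl libraries, and 1.14 to 1.65 CPM in male CKO and 0.151 to 1.61 CPM in male Ctrl libraries. Krt19 had 0.820 and 0.692 CPM in female CKO and at most 0.125 CPM in female Ctrl libraries, and 2.20 to 3.02 CPM in male CKO and 0.495 to 1.21 CPM in male Ctrl libraries. Upk3b (1.96 CPM) and Lhx9 (1.47 CPM) were highest in female CKO 2, and Pax2 and Cdh16 stayed at or below 0.0993 CPM in every library. The 10 markers of Leydig and interstitial cells summed to 10.8 to 28.2 CPM in female CKO, 3.91 to 10.8 CPM in female Ctrl, 5.17 to 22.3 CPM in male CKO and 7.25 to 17.1 CPM in male Ctrl libraries. The 6 Sertoli cell markers summed to 13.9 to 31.0 CPM in male CKO and 15.4 to 41.1 CPM in male Ctrl libraries, the highest sum being that of male Ctrl 1. The 7 red blood cell markers, mostly globins, summed to 10.4 CPM in female CKO 1 and 20.1 CPM in male CKO 1, to at most 0.812 CPM in the other CKO libraries and to at most 1.35 CPM in Ctrl libraries. Female CKO 1 was the higher female CKO library in Ccnd1, Ccnd2 and Cdkn2a, and male CKO 3 was the highest male CKO library in each. Male CKO 3 was also the highest male CKO library in the Sertoli, pregranulosa, germ cell, and Leydig and interstitial sums. It was the lowest in the red blood cell, endothelial, and mesonephric and surface epithelium sums. The 7 macrophage markers summed to 5.057 CPM in male CKO 3 and to at most 1.286 CPM in the other male CKO libraries. They summed to at most 2.774 CPM in male Ctrl, 2.106 CPM in female CKO and 7.443 CPM in female Ctrl libraries. The 6 endothelial markers, nearly all Pecam1, summed to 135 and 164 CPM in female CKO and 243 to 305 CPM in female Ctrl libraries. They summed to 240 to 266 CPM in male CKO and 170 to 340 CPM in male Ctrl libraries. The list did not move together in females. Cdh5 (0.205 and 0.782 CPM in CKO, at most 0.154 CPM in Ctrl), Kdr and Tek were higher in both female CKO libraries. Pecam1 and Cldn5 (0.878 and 1.35 CPM in CKO, 2.19 to 2.68 CPM in Ctrl) were lower, and Emcn overlapped. The 6 pregranulosa markers summed to 20.4 and 22.5 CPM in female CKO and 17.5 to 30.0 CPM in female Ctrl libraries, and to 5.27 to 6.85 CPM in male CKO and 5.15 to 7.28 CPM in male Ctrl libraries. The part of these marker levels in the results below was not tested.

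Counts at Cdkn2a cannot be split between p16Ink4a and p19Arf, so the sequences around both of its starts are shown, with that of its chromosomal neighbour Cdkn2b on the same strand. They are RefSeq promoters on GRCm38.p6 (250 bases before to 50 after the start) and capitals mark CpG pairs, the bases at which promoters can be methylated.
Cdkn2a upstream start, chr4:89294570-89294869, minus strand: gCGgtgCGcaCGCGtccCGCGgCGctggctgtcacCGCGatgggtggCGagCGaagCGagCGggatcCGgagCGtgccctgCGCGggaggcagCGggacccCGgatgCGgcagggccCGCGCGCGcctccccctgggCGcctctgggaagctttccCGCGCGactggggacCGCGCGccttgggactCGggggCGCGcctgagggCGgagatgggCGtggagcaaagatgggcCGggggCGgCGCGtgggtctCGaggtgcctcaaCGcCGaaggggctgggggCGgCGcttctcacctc
Cdkn2a downstream start, chr4:89282143-89282442, minus strand: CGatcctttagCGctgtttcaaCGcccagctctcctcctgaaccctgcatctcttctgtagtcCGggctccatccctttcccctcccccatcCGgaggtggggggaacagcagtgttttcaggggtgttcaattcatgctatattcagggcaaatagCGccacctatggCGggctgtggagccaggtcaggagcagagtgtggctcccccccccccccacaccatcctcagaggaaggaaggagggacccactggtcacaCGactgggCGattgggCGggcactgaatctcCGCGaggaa
Cdkn2b, chr4:89310983-89311282, minus strand: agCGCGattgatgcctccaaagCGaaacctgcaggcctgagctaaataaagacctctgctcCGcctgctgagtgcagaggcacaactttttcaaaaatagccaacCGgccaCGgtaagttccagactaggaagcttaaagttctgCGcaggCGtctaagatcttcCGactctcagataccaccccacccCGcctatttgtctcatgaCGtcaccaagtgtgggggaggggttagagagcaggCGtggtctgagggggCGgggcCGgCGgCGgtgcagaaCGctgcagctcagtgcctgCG
The upstream start, which in mouse leads into the first exon of p19Arf, held 45 CpG pairs, more than 98.1% of 32851 promoters of this length. The downstream start, that of p16Ink4a, held 12, and Cdkn2b held 18, against a median of 7 over all promoters. Promoters were listed for 7 of the 10 genes, 11 windows in all, and the others ranged from 2 CpG pairs at one start of Cdkn1a to 33 at one start of Cdkn2c. The E2F-type words TTTGGCGC, TTTCGCGC, TTTCCCGC and TTTGCCGC were searched on both strands. There was 1 match in the 11 windows, TTTCCCGC at the upstream start of Cdkn2a, and 2.3% of all promoters held at least 1 of the 4 words.

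Levels set against each other per kilobase of exon (RPKM on the exon length of GENCODE M21) spanned a wide range. In female CKO germ cells Cdkn1c was highest with 69.0 ± 3.82 RPKM, followed by Ccnd1 (19.98 ± 7.19), Cdkn1a (17.0 ± 4.05) and Ccnd3 (16.4 ± 2.25), and these last 3 lay within their spread. In male Ctrl germ cells Cdkn1c (23.4 ± 11.9 RPKM) and Ccnd3 (21.2 ± 7.60) led, their spreads overlapping, then Cdkn1a (10.9 ± 0.703). Cdkn1b, Cdkn2a, Cdkn2b, Cdkn2c and Ccnd2 stayed at or below a group mean of 4.26 RPKM in all 4 groups. Cdkn1b and Ccnd2 were the lowest members in female Ctrl germ cells, with 0.432 ± 0.0711 and 0.318 ± 0.129 RPKM.

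**Figure D1:**
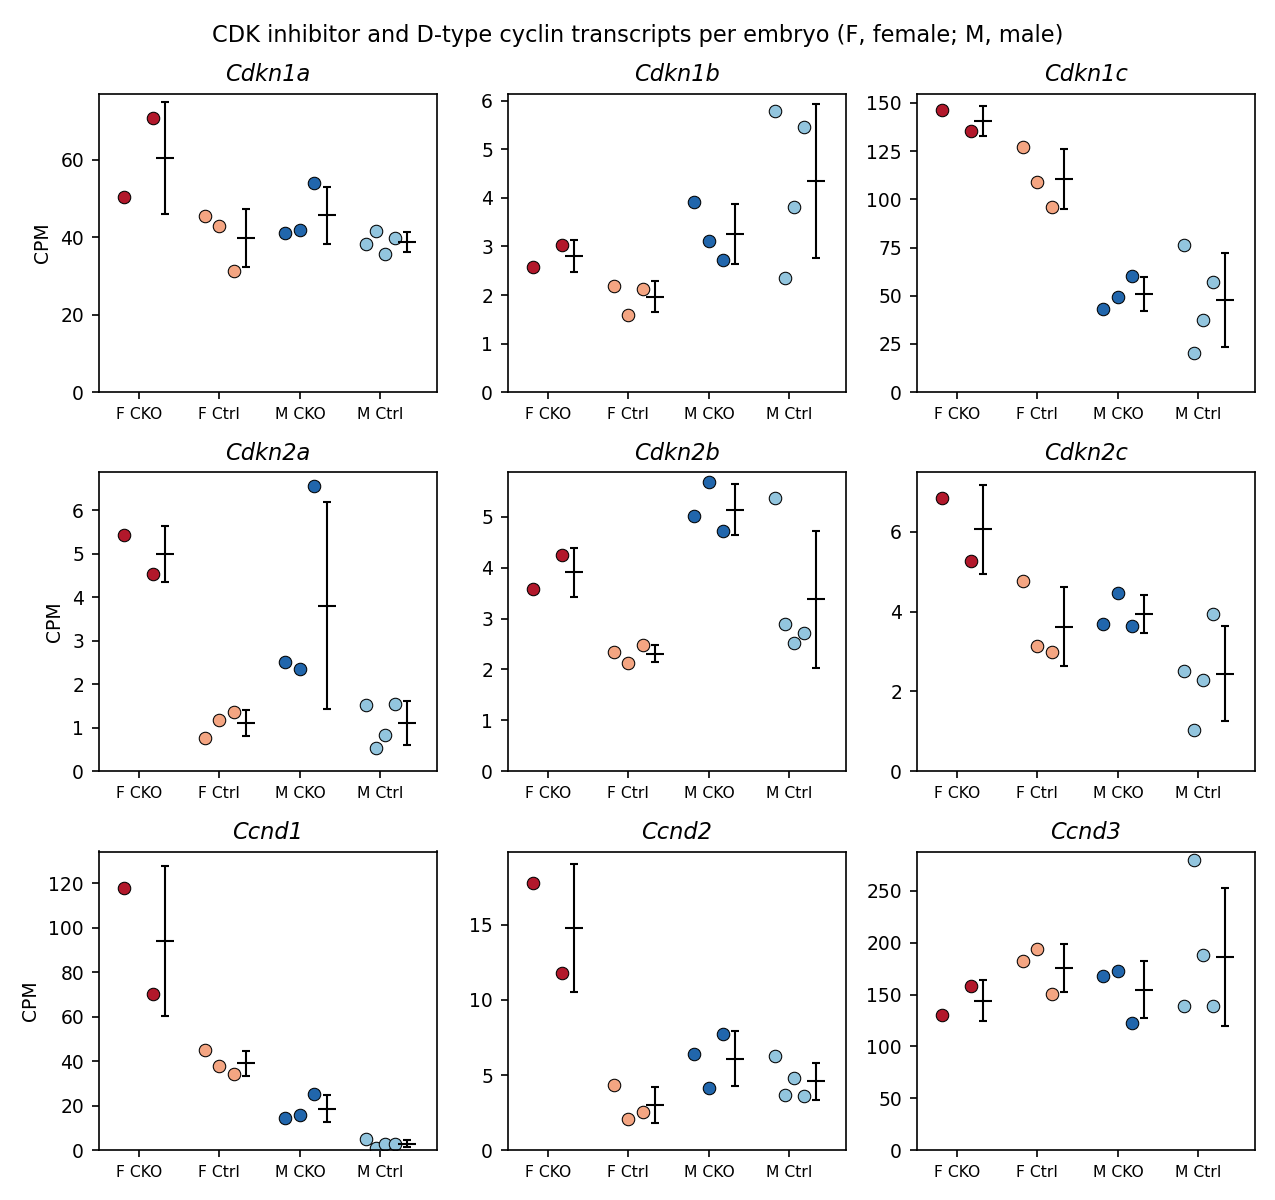
CPM of each member in each of the 12 libraries, with points for embryos and bars for the mean and SD of a group; each vertical axis starts at 0. Cdkn2a and Ccnd1 are higher in every CKO library than in any Ctrl library of the same sex. In females 8 of 9 members separate in this way, all but Ccnd3, as do 22.2% of tested genes. In males 2 of 9 members do, as do 8.01% of tested genes.

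In female germ cells the Ezh2 CKO was accompanied by higher Ccnd2 and Cdkn2a. Both rose more than 4-fold, and no member was called lower. Of the 9 members 2 were called higher and 0 lower in edgeR at an adjusted p under 0.05, against 3.01% of all tested genes called higher and 4.16% called lower. The median log2 fold change of the members was 0.74, and -0.004 over all tested genes. For 8 of 9 members both CKO libraries lay above all 3 Ctrl libraries, a pattern seen in 22.2% of tested genes, and Ccnd3 was the exception.

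Among the cyclins, Ccnd2, which encodes cyclin D2, had 17.8 and 11.8 CPM in female CKO libraries, against 4.36, 2.06 and 2.54 CPM in female Ctrl libraries. The groups did not overlap, and the higher CKO library was female CKO 1. The log2 fold change was 2.30 (edgeR adjusted p = 0.00533, SE 0.37), a 4.94-fold rise, and it stayed between 1.98 and 2.69 and called under all 12 alternatives. Ccnd1, the gene of cyclin D1, had 118 and 70.1 CPM in female CKO libraries, against 45.2, 37.7 and 34.1 CPM in female Ctrl libraries. These groups did not overlap either, but the log2 fold change of 1.27 (SE 0.38) missed the threshold in edgeR (adjusted p = 0.0613). It passed in limma-voom (adjusted p = 0.00398), in DESeq2 (0.0152) and with only the 2 female groups in the model (0.00884), and was 0.85 (adjusted p = 0.391) without female CKO 1. Ccnd3, which encodes cyclin D3, had 130.2 and 158 CPM in female CKO libraries, against 182, 194 and 150.4 CPM in female Ctrl libraries. Its groups overlapped, with a log2 fold change of -0.29 (95% interval -0.85 to 0.28).

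Among the INK4 genes, Cdkn2a had 5.44 and 4.54 CPM in female CKO libraries, against 0.768, 1.19 and 1.37 CPM in female Ctrl libraries. These were 186 and 151 counts in CKO against 25, 38 and 40 counts in Ctrl, and the groups lay well apart. The log2 fold change was 2.17 (edgeR adjusted p = 0.026, SE 0.52), a 4.50-fold rise. Leaving out any 1 of the 5 female libraries kept the value between 1.97 and 2.37 but gave an adjusted p of 0.0653 to 0.119. Cdkn2b, which encodes p15Ink4b, had 3.57 and 4.24 CPM in female CKO libraries, against 2.33, 2.13 and 2.47 CPM in female Ctrl libraries. The CKO libraries were again the higher ones, and the log2 fold change of 0.76 (SE 0.34) did not pass (adjusted p = 0.193). Cdkn2c, the gene of p18Ink4c, had 6.85 and 5.27 CPM in CKO and 4.76, 3.13 and 2.99 CPM in Ctrl females, with a log2 fold change of 0.74 (adjusted p = 0.307, SE 0.42).

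Of the CIP/KIP genes none passed the test in females. Cdkn1a, which encodes the p53-responsive inhibitor p21, had 50.3 and 70.7 CPM in female CKO libraries, against 45.4, 42.9 and 31.3 CPM in female Ctrl libraries. The log2 fold change was 0.60 (adjusted p = 0.0668, SE 0.19), and it passed in DESeq2 (0.0245), without the low-count filter (0.0431) and with scaling by library size only (0.0481). Cdkn1c, an imprinted gene that encodes p57Kip2, had 146 and 135 CPM in female CKO libraries, against 127, 109 and 96.1 CPM in female Ctrl libraries. Its log2 fold change was 0.35 (95% interval -0.48 to 1.17). Cdkn1b, which encodes p27Kip1, was low, with 2.58 and 3.04 CPM in CKO and 2.18, 1.60 and 2.13 CPM in Ctrl females (log2 fold change 0.51, 95% interval -0.30 to 1.32).

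In male germ cells Ccnd1 was the member that rose with the Ezh2 CKO, more than 6-fold. Cdkn2a was also higher in every CKO library but just missed the threshold. Of the 9 members 1 was called higher and 0 lower in edgeR, against 1.2% of tested genes called higher and 0.497% called lower. The members' median log2 fold change was 0.40, and -0.018 over all tested genes. In 2 of 9 members all 3 CKO libraries lay above all 4 Ctrl libraries, as in 8.01% of tested genes.

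Ccnd1 had 14.4, 15.9 and 25.5 CPM in male CKO libraries, against 5.05, 1.16, 2.91 and 2.73 CPM in male Ctrl libraries. Male CKO 3 was the highest and male Ctrl 2 the lowest, with no overlap. The log2 fold change was 2.62 (edgeR adjusted p = 0.004, SE 0.35), a 6.17-fold rise, and it was called under all 14 alternatives with values between 2.33 and 3.02. A gene on the opposite strand, LTO1, overlaps exons of Ccnd1, and this library chemistry does not mark the strand. LTO1 was at 8.95 ± 0.691 CPM in male CKO and 7.83 ± 0.818 CPM in male Ctrl germ cells (log2 fold change 0.19, edgeR adjusted p = 0.676). Ccnd2 had 6.40, 4.13 and 7.74 CPM in male CKO libraries, against 6.25, 3.67, 4.80 and 3.63 CPM in male Ctrl libraries. These groups overlapped, with a log2 fold change of 0.40 (95% interval -0.27 to 1.08). Ccnd3 had 168, 173 and 123 CPM in male CKO libraries, against 138.5, 279.9, 188 and 138.5 CPM in male Ctrl libraries, also overlapping (log2 fold change -0.27, 95% interval -0.74 to 0.20). Bysl overlaps exons of Ccnd3 on the opposite strand. It was not called between CKO and Ctrl in either sex (edgeR adjusted p = 0.362 in females and 0.735 in males). Between the sexes Bysl was lower in females. Its log2 fold change was -0.672 among Ctrl (edgeR adjusted p = 0.000821) and -0.805 among CKO embryos (0.000978). Exons of Ccnd2, Cdkn1c and Cdkn1a are also overlapped by genes on the opposite strand, and these genes have no count here. Reads from them could not be told apart from those of the members, and their part in the results of Ccnd2, Cdkn1c and Cdkn1a was not tested.

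Cdkn2a had 2.50, 2.36 and 6.57 CPM in male CKO libraries, against 1.52, 0.536, 0.827 and 1.55 CPM in male Ctrl libraries. Male CKO 3 was far above the other CKO libraries, which still exceeded all controls. The log2 fold change was 1.77 (edgeR adjusted p = 0.0598, SE 0.44), and 1.13 (adjusted p = 0.315) without male CKO 3. It passed in DESeq2 (adjusted p = 0.00461), in limma-voom (0.033) and without the low-count filter (0.0202). Cdkn2b had 5.01, 5.69 and 4.71 CPM in male CKO libraries, against 5.37, 2.89, 2.52 and 2.73 CPM in male Ctrl libraries. Male Ctrl 1 was the control that overlapped the CKO range. The log2 fold change of Cdkn2b was 0.60 (adjusted p = 0.301, SE 0.28), and limma-voom called it (0.86, adjusted p = 0.0329). Cdkn2c had 3.69, 4.47 and 3.65 CPM in male CKO libraries, against 2.51, 1.03, 2.28 and 3.94 CPM in male Ctrl libraries, which overlap through male Ctrl 4 (log2 fold change 0.69, adjusted p = 0.359).

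The CIP/KIP genes showed no called change in males. Cdkn1a had 40.9, 41.9 and 54.1 CPM in male CKO libraries, against 38.3, 41.5, 35.6 and 39.8 CPM in male Ctrl libraries (log2 fold change 0.23, 95% interval -0.10 to 0.57). Cdkn1b had 3.93, 3.12 and 2.72 CPM in male CKO libraries, against 5.78, 2.35, 3.81 and 5.45 CPM in male Ctrl libraries (-0.42, 95% interval -1.10 to 0.26). Cdkn1c had 43.1, 49.3 and 60.3 CPM in male CKO libraries, against 76.4, 20.3, 37.4 and 57.2 CPM in male Ctrl libraries (0.09, 95% interval -0.61 to 0.79). Male Ctrl 2 was the lowest male library in both Cdkn1b and Cdkn1c, and the male CKO libraries lay inside the range of the male controls in both.

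**Figure D2:**
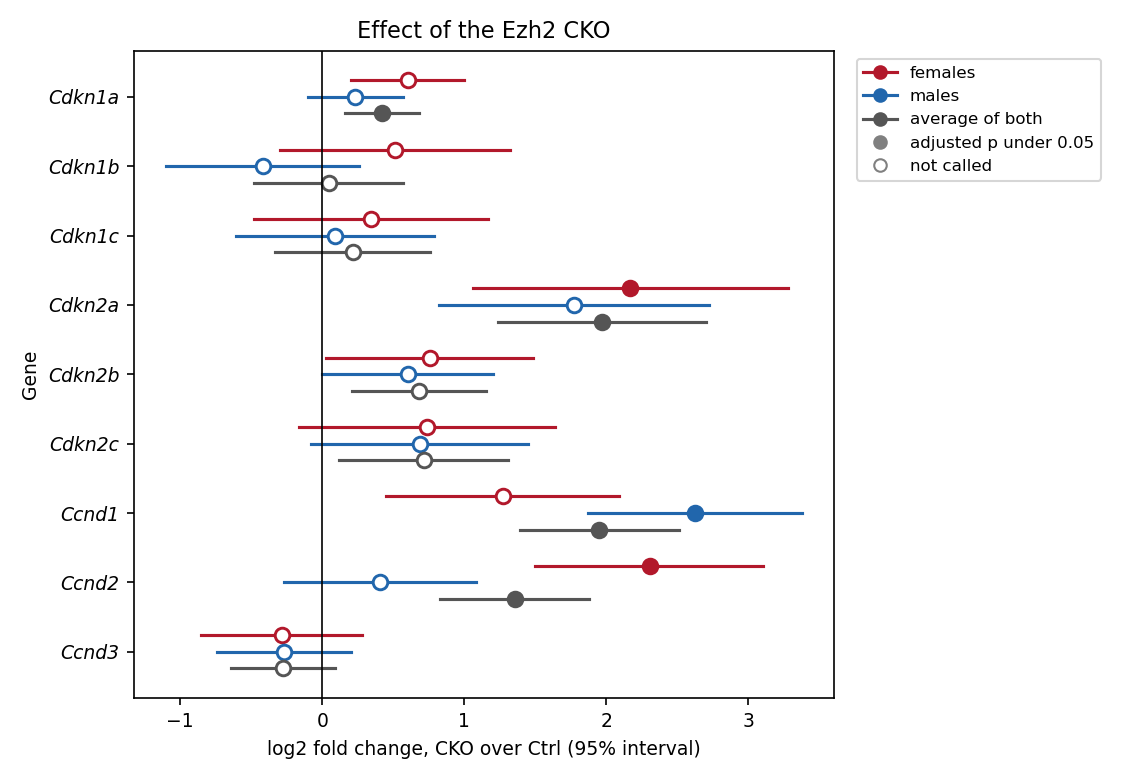
Log2 fold change of CKO over Ctrl with its 95% interval for each member in females, in males and averaged over both; filled points have an adjusted p under 0.05. Ccnd2 and Cdkn2a are filled in females, Ccnd1 is filled in males, and the average is filled for Cdkn1a, Cdkn2a, Ccnd1 and Ccnd2.

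Averaging the female and male effects with equal weight called 4 of 9 members higher and 0 lower, against 6.85% of tested genes called higher and 7.87% called lower. This average uses the same libraries as the comparisons within each sex. The average log2 fold changes were 1.97 for Cdkn2a (edgeR adjusted p = 0.00274, SE 0.34), 1.95 for Ccnd1 (adjusted p = 0.000713, SE 0.26) and 1.35 for Ccnd2 (adjusted p = 0.00334, SE 0.24). These 3 genes were called under all 18 alternatives. Cdkn1a averaged 0.42 (adjusted p = 0.0354, SE 0.12). It lost the call without female CKO 2 (adjusted p = 0.189), male CKO 2 (0.0525), male CKO 3 (0.0874), female Ctrl 3 (0.0713) or male Ctrl 3 (0.0613). Cdkn2b (0.68, adjusted p = 0.053) and Cdkn2c (0.71, adjusted p = 0.1) were close to the threshold, and both passed in DESeq2 (0.0166 and 0.047) and limma-voom (0.00627 and 0.0178). Cdkn2b also passed with median-of-ratios scaling (0.0496), with library size only (0.0396) and without male Ctrl 1 (0.00732). Cdkn2c also passed without male Ctrl 4 (0.0387).

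Whether the CKO effect differed between the sexes was tested as an interaction, and 0 of 9 members were called, as were 0% of tested genes in edgeR (1401 of 16708 at an unadjusted p under 0.05, and 50 called in DESeq2). Ccnd2 had the smallest p among the members. Its effect was 1.90 larger in females than in males on the log2 scale (95% interval 0.85 to 2.95), with an adjusted p of 0.385 in edgeR and 0.0446 in DESeq2. The Ccnd1 effect was smaller in females, by -1.35 on the log2 scale (95% interval -2.49 to -0.22), with an edgeR adjusted p of 0.534. For Cdkn2a the difference was 0.40, with a 95% interval of -1.07 to 1.86.

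The sexes differed most in Ccnd1, and this difference was present with and without the CKO. Among Ctrl embryos 2 of 9 members were called higher in females than in males and 1 lower, against 20.1% and 19.4% of tested genes. Ccnd1 averaged 39.0 ± 5.66 CPM in female Ctrl and 2.96 ± 1.60 CPM in male Ctrl germ cells (SD, n = 3 and 4), a log2 fold change of 3.69 (edgeR adjusted p = 6.39e-06, SE 0.36), or 12.9-fold. Cdkn1c averaged 111 ± 15.5 CPM in female Ctrl and 47.8 ± 24.3 CPM in male Ctrl germ cells (log2 fold change 1.21, edgeR adjusted p = 0.00993, SE 0.32), with no overlap. The Cdkn1c call was just lost without the low-count filter (adjusted p = 0.0514). Cdkn1b was the member lower in females, with 1.97 ± 0.324 CPM in female Ctrl and 4.35 ± 1.59 CPM in male Ctrl germ cells (log2 fold change -1.15, edgeR adjusted p = 0.0127, SE 0.32). Its female and male libraries did not overlap, and without female Ctrl 2 the adjusted p was 0.0564. Cdkn2b averaged 2.31 ± 0.173 CPM in female Ctrl and 3.38 ± 1.34 CPM in male Ctrl germ cells, without overlap and without a call (-0.55, edgeR adjusted p = 0.15). In these bulk samples fewer transcripts per cell and fewer cells that carry the transcript cannot be told apart.

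Among CKO embryos 3 of 9 members were higher in females and 0 lower, against 19.4% and 19% of tested genes. Ccnd1 averaged 94.1 ± 33.8 CPM in female CKO and 18.6 ± 6.01 CPM in male CKO germ cells (SD, n = 2 and 3; log2 fold change 2.34, edgeR adjusted p = 0.000468, SE 0.39). The 3 male CKO libraries, though above all male controls, remained below the lowest female Ctrl library (34.1 CPM). Ccnd2 averaged 14.8 ± 4.22 CPM in female CKO and 6.09 ± 1.83 CPM in male CKO germ cells (log2 fold change 1.28, edgeR adjusted p = 0.0138, SE 0.37). In Ctrl embryos the log2 fold change of Ccnd2 between females and males was -0.62 (adjusted p = 0.146), and -0.998 (adjusted p = 0.0437) without female Ctrl 1. The call among CKO embryos was lost without female CKO 1 (adjusted p = 0.152) or male CKO 2 (0.0575). Cdkn1c averaged 141 ± 7.79 CPM in female CKO and 50.9 ± 8.74 CPM in male CKO germ cells (1.47, edgeR adjusted p = 0.0093, SE 0.38), and lost its call without female CKO 1 (0.0603) or the low-count filter (0.0505). Cdkn1a averaged 60.5 ± 14.4 CPM in female CKO and 45.6 ± 7.32 CPM in male CKO germ cells (0.41, edgeR adjusted p = 0.101). It passed without female CKO 1 (adjusted p = 0.0488), without male CKO 3 (0.0382) and with library size only (0.0293). For Cdkn1b the CKO libraries overlapped, at 2.81 ± 0.327 CPM in females and 3.26 ± 0.615 CPM in males (log2 fold change -0.21, 95% interval -1.02 to 0.60). Cdkn2a and Ccnd3 were called between the sexes in neither genotype (edgeR adjusted p of 0.573 and 0.788 among CKO, 0.991 and 0.789 among Ctrl embryos).

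**Figure D3:**
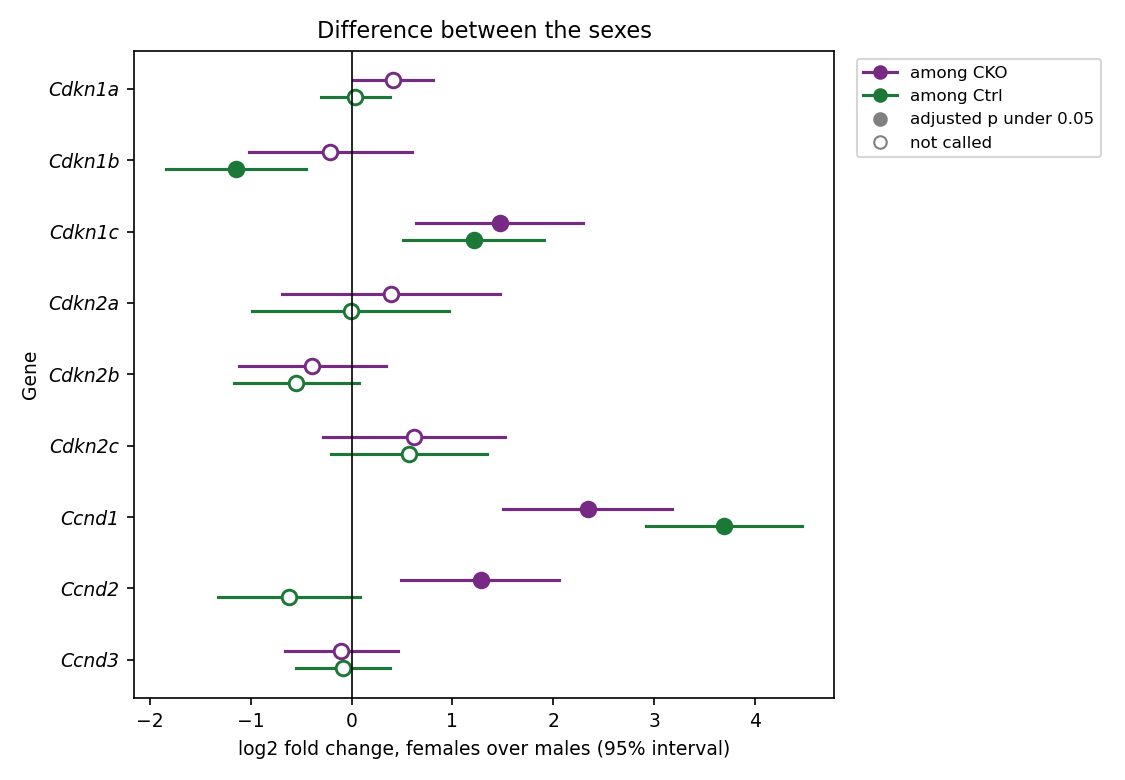
Log2 fold change of females over males with its 95% interval for each member among CKO and among Ctrl embryos; filled points have an adjusted p under 0.05. Ccnd1 and Cdkn1c are higher in females in both genotypes, Cdkn1b is lower in Ctrl females, and Ccnd2 is higher in CKO females.

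The D-type cyclins made up different mixtures in the 4 groups. Ccnd1 took 51.8 ± 11.6% of the summed RPKM of the 3 cyclins in female CKO and 29.0 ± 2.44% in female Ctrl germ cells. It took 18.1 ± 7.43% in male CKO and 3.27 ± 2.22% in male Ctrl germ cells. Ccnd3 supplied 44.1 ± 12.2% in female CKO and 69.9 ± 2.83% in female Ctrl germ cells, and 78.9 ± 8.37% in male CKO and 94.3 ± 3.28% in male Ctrl germ cells. Ccnd2 stayed a minor component, with at most 4.52% in a library. The summed level was 38.0 ± 5.39 RPKM in female CKO and 28.6 ± 3.43 RPKM in female Ctrl germ cells, against 22.2 ± 1.73 RPKM in male CKO and 22.3 ± 7.27 RPKM in male Ctrl germ cells. These shares follow from the same counts as the comparisons above and depend on the exon lengths used, which include rare transcript forms.

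**Figure D4:**
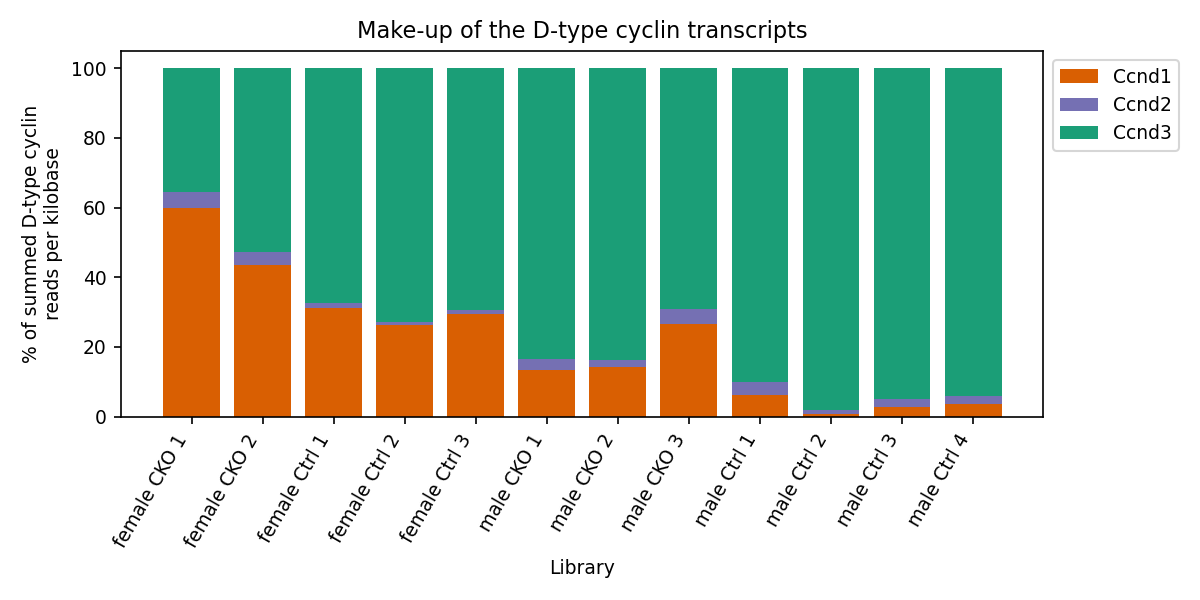
Share of Ccnd1, Ccnd2 and Ccnd3 in the summed reads per kilobase of the 3 D-type cyclins, as stacked bars for each library. Ccnd1 takes 43.6% and 59.97% in the 2 female CKO libraries and between 0.754% and 6.12% in the 4 male Ctrl libraries.

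Of 43 other genes of the pathway, all tested, 0 were called higher and 4 lower in CKO females, against 3.01% and 4.16% of all tested genes, with a median log2 fold change of -0.12. Those 4 were E2f3 (-0.69, edgeR adjusted p = 0.014) and E2f6 (-0.47, adjusted p = 0.0381), an activating and a repressive member of the E2F family, Mycn (-0.50, adjusted p = 0.0382), a Myc family factor, and Mdm4 (-0.46, adjusted p = 0.017), an inhibitor of p53. In CKO males 0 of 43 were called in either direction by edgeR, against 1.2% of tested genes called higher and 0.497% called lower, with a median of 0.01. Averaged over both sexes, 1 was called higher and 2 lower, against 6.85% and 7.87% of tested genes: Myc rose (1.01, edgeR adjusted p = 0.0295), while E2f3 (-0.41, adjusted p = 0.0104) and Mdm4 (-0.39, adjusted p = 0.00221) fell. Within each sex the log2 fold change of Myc was 1.18 (females) and 0.85 (males), called in neither (adjusted p = 0.119 and 0.253). Myc averaged 3.13 ± 1.49 CPM in female CKO and 1.38 ± 0.514 CPM in female Ctrl germ cells, and 3.79 ± 0.598 CPM in male CKO and 2.10 ± 0.701 CPM in male Ctrl germ cells.

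Between the sexes the partner kinases ran opposite to Ccnd1. Of the 43 pathway genes 8 were higher and 16 lower in Ctrl females than in Ctrl males, against 20.1% and 19.4% of all tested genes. Cdk4 averaged 229 ± 36.7 CPM in female Ctrl and 534 ± 43.2 CPM in male Ctrl germ cells (log2 fold change -1.22, edgeR adjusted p = 3.16e-06). Cdk6 averaged 5.61 ± 1.58 CPM in female Ctrl and 22.1 ± 6.36 CPM in male Ctrl germ cells (-1.98, edgeR adjusted p = 3.6e-05). Also lower in Ctrl females were Skp2 (-0.77), which encodes the ubiquitin ligase subunit that targets p27Kip1 for degradation, Cks1b (-0.64), its cofactor, the phosphatase gene Cdc25c (-0.76) and the RB-binding repressor gene E2f4 (-0.79). Higher were Cdc25b (0.92), the cyclin H gene Ccnh (0.73), Gadd45a (1.96), a stress-responsive gene, and Sesn1 (0.68), a p53 target. The edgeR adjusted p of these 8 genes lay between 3.25e-05 in Ccnh and 0.0032 in Cdc25c. The p53 list of 8 genes held 2 genes called higher and 2 called lower. Its lower genes were Trp53 itself (-0.76, edgeR adjusted p = 0.018) and Btg2 (-0.88, adjusted p = 0.00822). Mycn (-0.52, adjusted p = 0.00198) and E2f6 (-0.48, adjusted p = 0.00238) were lower in Ctrl females as well. Among CKO embryos 7 of the 43 were higher and 17 lower in females, against 19.4% and 19% of tested genes, with Cdk4 at 227 ± 22.3 CPM in female CKO and 539.9 ± 13.2 CPM in male CKO germ cells (-1.25, edgeR adjusted p = 1.9e-05).

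**Figure D5:**
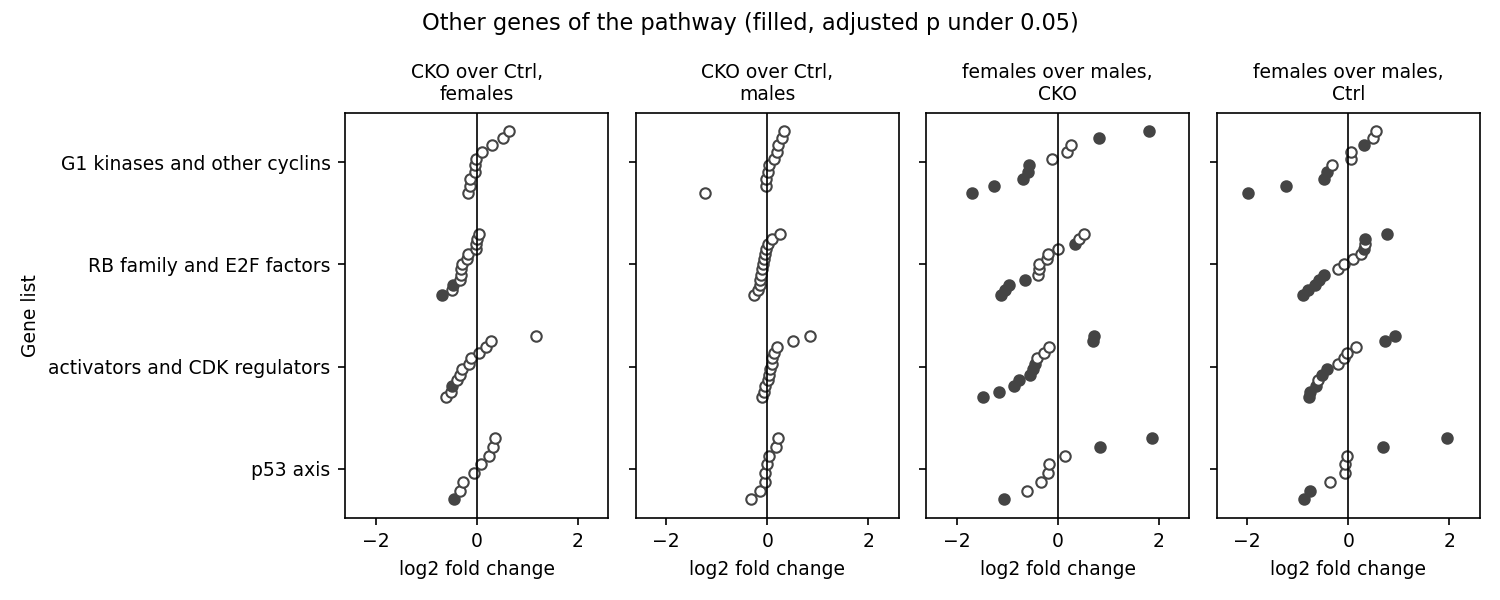
Log2 fold changes of the 43 other pathway genes by list for CKO over Ctrl in each sex and for females over males in each genotype; each point is a gene and filled points have an adjusted p under 0.05. The CKO panels hold 4 filled points in females and 0 in males, against 24 in each panel of the sexes.

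Over the 12 libraries, the genes whose log2 CPM ran closest to that of Cdkn2a among 11952 searched were Wfdc15a (Pearson r = 0.927), Nxf3 (0.926) and Klf4 (0.92). Klf4, a pluripotency-associated transcription factor gene, averaged 5.71 CPM in female CKO and 2.23 CPM in female Ctrl germ cells, and 4.91 CPM in male CKO and 2.07 CPM in male Ctrl germ cells. Ccnd1 was most like Man1a (0.984), Gxylt2 (0.979) and Fam107b (0.978), of which Man1a encodes a mannosidase and Gxylt2 a xylosyltransferase. Gxylt2 averaged 9.39 CPM in female CKO and 3.35 CPM in female Ctrl germ cells, and 2.33 CPM in male CKO and 0.448 CPM in male Ctrl germ cells. These r values describe likeness over libraries of 4 groups and were picked as the highest of many, so they carry no test.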

How the data were processed

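RNA of germ cells sorted from 12 single embryos was reverse transcribed and amplified with SMART-seq V4 and made into libraries with NEBNext Ultra II, per the labels' protocols; this chemistry does not mark the strand. The authors deposited 1 table of raw read counts per Ensembl gene. Per the submitters' processing notes, the tools included TopHat2 2.0.11, Trimmomatic 0.33, CASAVA 1.8.4 and featureCounts, and the builds were mm9 and NCBIM37; how reads with several matches were counted is not given in the sources used here. Symbols, exon lengths and overlapping genes came from GENCODE M21 on GRCm38 and promoters from RefSeq on GRCm38.p6, so they are on another build than the counts. Symbols matched 32919 of 37991 identifiers, with 99.5% of the counts.

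The filterByExpr rule of edgeR (minimum count 10, minimum total 15) left 16708 genes, and TMM factors scaled the libraries. A quasi-likelihood model with robust dispersion in edgeR 4.0.16 (limma 3.58.1, R 4.3.3) had 1 coefficient per group over all 12 libraries. Benjamini-Hochberg adjustment ran over all tested genes, with calls at an adjusted p under 0.05. Standard errors came from the F statistic, and 95% intervals from the t distribution with the moderated degrees of freedom. The fit was also run on counts simulated from its own mean levels and dispersions, with set fold changes added. Such counts share the assumptions of the model, so this run cannot show how well they hold here. CPM are given on TMM-scaled library sizes; amplified reads are not independent molecules, and the embryo is the replicate. Libraries of 1 group differed by more than counting noise, with a chi-square per gene of 18.6 to 74.2. The labels give no batch.

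Alternatives were median-of-ratios (RLE) or library-size scaling, no low-count filter, a model of only the groups compared, a block for the replicate number, DESeq2 1.42.0, limma-voom with quality weights and leaving out each library. The text names the members whatever their result, Ezh2 and the 3 genes most like Cdkn2a and Ccnd1 (mean of at least 1 CPM, log2 of CPM plus 0.5). It also names called genes of the pathway lists, though not all of those called between the sexes. LTO1, Bysl and the marker genes were named in addition. The members, lists and tests were chosen with earlier results of these data known.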

Additional observations from a re-analysis of the deposited data

Results flagged for a closer look

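In male Ctrl 1 the level of 3 genes lay apart from the other male Ctrl libraries, by the gap between the extreme library and its neighbour relative to the range of the group. Cdkn2b was at 5.37 CPM there, with the next library at 2.89 CPM. Cks2, which encodes a CDK-binding subunit, was at 291 CPM, with the next at 394 CPM, and Wee1, which encodes an inhibitory kinase of CDK1, was at 131 CPM, with the next at 187 CPM. Among the 41 genes examined in this group of 4, chance alone gives such a gap in about 1 in 20.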

How the results depend on the processing

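Member calls depended on the setting mainly in the CKO comparisons. In females 4 members were called in DESeq2 in place of 2, and 1 in each run without 1 library (1 to 1), which was Ccnd2. In males 2 were called without the low-count filter, 3 in limma-voom and 2 in DESeq2 in place of 1, and 1 in every run without 1 library. DESeq2 called 1 member, Ccnd2, for the difference between the sexes in the CKO effect, against 0 in edgeR, and runs without 1 library called 0. Such runs called 3 to 5 members for the average over both sexes, 2 to 4 between the sexes among Ctrl and 2 to 4 among CKO embryos.

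Over all genes, females had 1198 calls, 2035 in limma-voom, 1989 in DESeq2 and 317 to 691 without 1 library. Males had 284 calls, 63 with only the groups compared, 105 with the replicate block, 1098 in limma-voom, 992 in DESeq2 and 36 to 502 without 1 library. The difference between the sexes had 0 calls, 2 without the low-count filter, 50 in DESeq2 and 0 to 3 without 1 library. The average had 2460 calls, and 1363 to 2803 without 1 library; among Ctrl embryos the sexes differed in 6604 genes (5138 to 6774), and among CKO embryos in 6411 (4063 to 5602). Scaling by library size only gave 652 higher and 357 lower in females in place of 503 and 695, 1505 and 782 on average in place of 1145 and 1315, 4062 and 2592 among Ctrl in place of 3358 and 3246, and 4336 and 2212 among CKO in place of 3239 and 3172. Without other libraries in the model, females had 912 higher and 793 lower calls.

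Signs turned only in values without a call in edgeR. For the difference in CKO effect, Ccnd3 was 0.056 with library size only and -0.28 to 0.12 without 1 library, Cdkn2c -0.34 with the replicate block and -0.27 to 0.31, Cdkn2b -0.075 in limma-voom and -0.16 to 0.28, and Cdkn1c -0.054 to 0.51. Between the sexes among Ctrl, Cdkn2a was 0.083 with library size only, 0.20 with the replicate block, 0.19 in limma-voom and -0.23 to 0.20 without 1 library, Ccnd3 0.028 with library size only, 0.015 in limma-voom and -0.21 to 0.18, and Cdkn1a -0.061 to 0.20. Among CKO, Ccnd3 was 0.085 with library size only and -0.24 to 0.029. Cdkn1c in males ran from -0.16 to 0.41 and the average of Cdkn1b from -0.055 to 0.14. The cause of these shifts was not tested.

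The correlation of deviations from the group mean was -0.116 to 0.185 over 15 same-numbered pairs of libraries and -0.187 to 0.187 over 38 other pairs. The deviations of the 2 female CKO libraries mirror each other, so each of their values recurs with the opposite sign. The replicate numbers are those of the sample titles. The count columns number the female CKO and some of the female Ctrl embryos differently. Whether either numbering pairs the embryos was not tested. With the replicate block the average of Cdkn1a lost its call (edgeR adjusted p = 0.0671), while the average of Cdkn2c (0.0395) and Ccnd2 between Ctrl females and males (0.0402) passed. With 2 to 4 embryos per group, and as few as 13 counts for Cdkn2a in a library, smaller changes of the low members could not be resolved. Where 1 CKO female is left, it is assumed to vary like the other groups.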
